A study of Mus musculus with 6 samples.

Results

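Secreted Wnt antagonists and Frizzled receptors were followed in mouse heart RNA through 10 genes. They were the secreted frizzled-related proteins Sfrp1, Sfrp2, Sfrp5 and Frzb, the Dickkopf family member Dkk3, the Wnt inhibitory factor Wif1, the receptors Fzd1, Fzd2 and Fzd4, and the feedback gene Axin2. Every probe set that the platform annotation assigns to exactly 1 of these genes was taken, which gave 23 of the 45037 probe sets used and 10 of the 18193 genes with a probe set of their own. RNA abundance was measured on 6 Affymetrix Mouse430_2 arrays of total heart RNA, 3 labelled as from C57BL/6 mice that overexpress hAT1R, the human type 1 angiotensin II receptor, and 3 labelled as from normal C57BL/6 mice. Both groups were stated to be matched for age and sex, and no age, transgene promoter, founder line or treatment is given in the sources used here. Values are GCRMA expression values on the log2 scale, in which a step of 1 is a doubling of signal.

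Wnt proteins are secreted signals that bind Frizzled receptors, which span the membrane, together with the co-receptors Lrp5 and Lrp6. Canonical signalling stabilises beta-catenin, which enters the nucleus and activates targets through TCF/LEF factors, and Axin2 is among those targets and feeds back to restrain the pathway. Secreted frizzled-related proteins carry a domain like that of the receptors and bind Wnt ligands outside the cell, as Wif1 does with a domain of its own. In the adult heart the pathway is largely quiet, and its secreted antagonists are known from fibroblasts and other stromal cells in scarring tissue.

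The instrument's text records held a typed word that went against the group label on all 6 arrays, "control" on the 3 labelled transgenic arrays and "transgene" on the 3 labelled non-transgenic ones. Groups below follow the sample labels, and every sign would turn if the typed words were right. The human transgene has no probe set on this array, so the labels could not be checked by it. The 3 labelled transgenic arrays and labelled non-transgenic array 1 were washed on fluidics station 2, the other 2 on station 3, and the labelled transgenic arrays were scanned first, so scan order and group cannot be told apart. Xist, the RNA that coats the silenced X, exceeded log2 6 on labelled transgenic arrays 1 and 3 and on labelled non-transgenic array 2, and was below 3 on the other arrays, although the groups were stated to be matched for sex. Array medians lay between 3.25 and 3.31. Eif2s3y, a Y-linked gene, read from 2.63 to 3.58 on the 3 arrays with high Xist and from 9.17 to 9.25 on the others. Each group held both kinds, so its arrays did not all come from 1 animal. Whether every array came from a separate animal is not stated in the labels. P-values measure only the spread between these samples, which may be technical in part. Since the RNA came from bulk heart tissue, more cells of a type and more RNA per cell cannot be told apart.

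Of the 23 probe sets, 19 passed a brightness filter that kept a probe set when its mean over the 6 arrays exceeded log2 3.29, the median of all such means. All 10 genes kept at least 1. The differences below are labelled transgenic minus labelled non-transgenic, with the standard error of limma's moderated test and an adjusted p from the Benjamini-Hochberg method over all 22518 probe sets kept. None of the 19 passed at an adjusted p under 0.05 in limma, where 0.218% of all probe sets kept did (49 of 22518, 0.178% higher and 0.04% lower). The smallest adjusted p was 0.078. At an unadjusted p under 0.05 there were 10 higher probe sets, from 6 genes, and 1 lower one, while 9.41% and 6.98% of all probe sets kept were higher and lower at that level, 16.4% in all. The Sfrp2 probe set had a labelled non-transgenic mean under the filter and was kept through its labelled transgenic values, so it favours the higher side of these counts, and without it 9 of 18 were higher at that level. Of the 19, 12 had a difference above 0, beside 52.5% of all probe sets kept. By the brightest probe set of each gene, Frzb, Sfrp2, Sfrp1, Dkk3, Fzd2 and Fzd1 had differences above 0, and Sfrp5, Wif1, Axin2 and Fzd4 had differences below 0. The median of these 10 was 0.54, beside 0.0099 over all genes tested by their brightest probe set, and the genes were chosen with earlier results of these data known.

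Promoter sequences are shown for the antagonists with the largest differences (Frzb and Sfrp2), for the receptor Fzd1 and for Axin2, a known target of the pathway. They come from RefSeq, build GRCm38.p6, and run from 250 bases before to 50 bases after the annotated start, 5′ to 3′ on the gene's strand. Capitals mark matches on either strand to the TCF/LEF core (CTTTGA or CTTTGT), the AP-1 site (TGANTCA) or the TATA box (TATAAA). None of the matches below overlap.
Frzb, chr2:80447347-80447646, minus strand: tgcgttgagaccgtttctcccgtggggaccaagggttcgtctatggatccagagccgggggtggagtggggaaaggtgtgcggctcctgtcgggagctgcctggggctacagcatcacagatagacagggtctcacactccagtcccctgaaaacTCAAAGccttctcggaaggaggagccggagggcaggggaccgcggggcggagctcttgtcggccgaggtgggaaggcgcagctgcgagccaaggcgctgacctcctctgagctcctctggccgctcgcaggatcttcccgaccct
Sfrp2, chr3:83766071-83766370, plus strand: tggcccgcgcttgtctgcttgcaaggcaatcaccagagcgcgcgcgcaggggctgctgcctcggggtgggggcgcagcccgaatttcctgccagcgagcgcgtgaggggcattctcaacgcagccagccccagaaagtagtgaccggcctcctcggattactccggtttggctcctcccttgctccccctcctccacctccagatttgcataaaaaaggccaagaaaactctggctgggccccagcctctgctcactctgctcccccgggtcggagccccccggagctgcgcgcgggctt
Fzd1, chr5:4758167-4758466, minus strand: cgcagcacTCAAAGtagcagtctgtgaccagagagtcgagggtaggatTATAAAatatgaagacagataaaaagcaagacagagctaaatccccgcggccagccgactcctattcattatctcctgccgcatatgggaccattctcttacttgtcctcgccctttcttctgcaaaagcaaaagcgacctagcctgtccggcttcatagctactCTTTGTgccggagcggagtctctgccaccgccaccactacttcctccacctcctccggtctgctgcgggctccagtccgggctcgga
Axin2, chr11:108920099-108920398, plus strand: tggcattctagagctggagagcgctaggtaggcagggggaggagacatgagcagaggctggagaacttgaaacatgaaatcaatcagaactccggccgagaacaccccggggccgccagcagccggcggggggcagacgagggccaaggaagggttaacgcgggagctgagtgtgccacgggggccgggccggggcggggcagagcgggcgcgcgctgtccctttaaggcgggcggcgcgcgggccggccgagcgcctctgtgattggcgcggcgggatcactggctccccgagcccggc
The Frzb window held 1 TCF/LEF core, beginning at base -95 from the start. The Fzd1 window held 2, at -242 and -37, and a TATA box at -202, while the Sfrp2 and Axin2 windows held none of the 3 motifs. A TCF/LEF core was present in 31.2% of all 32817 promoter windows of this length, an AP-1 site in 7.81% and a TATA box in 13.6%. G and C made up 64.7% of the window for Frzb, 66.0% for Sfrp2, 54.0% for Fzd1 and 70.0% for Axin2, with a median of 52.7% over all windows. Of the 10 genes, 7 had a window in the table used, and the windows of Sfrp5, Wif1 and Fzd4 held 1 match in all, a TATA box of Wif1 at -232.

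Frzb, a secreted frizzled-related protein first known from cartilage, gave the largest difference of the 10 genes. Its brightest probe set (1416658_at) read 6.65, 6.21 and 6.94 on the labelled transgenic arrays and 4.86, 5.41 and 4.82 on the labelled non-transgenic ones. The groups did not overlap, all 3 labelled transgenic values standing above the highest labelled non-transgenic one, 5.41. Of the 19 probe sets, 8 were higher without overlap (7 of 18 without Sfrp2), beside 13.2% of all kept, and 1 was lower, an Sfrp1 probe set, beside 9.78%. Means were 6.60 ± 0.37 and 5.03 ± 0.33 (SD, n = 3 each), a 2.97-fold difference of 1.57 ± 0.24 (SE) with a 95% interval from 0.998 to 2.14 and a limma adjusted p of 0.078. Over the alternatives that keep this probe set by itself the difference ran from 1.40 to 1.77 and its adjusted p from 0.0501 to 0.22, so it did not pass in any of them, nor as the mean of both Frzb probe sets (1.25, adjusted p = 0.0799). Blocking on the station put it at 1.74. That is a comparison with labelled non-transgenic array 1 alone (4.86), the only array of its group on the same station. A second Frzb probe set (1448424_at) read 5.36, 4.18 and 5.22 on the labelled transgenic arrays and 3.94, 4.04 and 3.99 on the labelled non-transgenic ones, again without overlap, although labelled transgenic array 2 was only slightly above the other group. Its difference was 0.93 ± 0.31 (limma, adjusted p = 0.228).

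Sfrp1, which binds Wnt ligands and Frizzled receptors, was covered by 5 probe sets of 2 kinds. The brightest (1460187_at) read 6.75, 7.16 and 7.04 on the labelled transgenic arrays and 6.30, 6.41 and 6.11 on the labelled non-transgenic ones, with no overlap. The next (1428136_at) read 6.71, 6.81 and 6.92 on labelled transgenic arrays, against 6.34, 6.19 and 6.03 on labelled non-transgenic ones. Here too the groups did not overlap. The differences were 0.70 ± 0.13 and 0.63 ± 0.11, or 1.63-fold and 1.54-fold, with limma adjusted p-values of 0.0953 and 0.078. The other 3 probe sets, whose group means lay between 4.17 and 5.02, had differences of -0.04, -0.13 and 0.12 with adjusted p-values of 0.939, 0.505 and 0.675 in limma. One of them carries the suffix that marks probes able to bind other transcripts too. Averaged over all 5 probe sets, Sfrp1 was at 0.26 (adjusted p = 0.175 in limma), and which of the 2 kinds reports the transcript better was not tested.

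Sfrp2, an antagonist with roles in fibroblast and collagen biology, had a single probe set (1448201_at) near the lower end of the scale. It read 4.01, 3.92 and 5.31 on the labelled transgenic arrays, against 3.17, 3.00 and 3.09 on the labelled non-transgenic ones. Labelled transgenic array 3 stood well above the other 2 of its group, and the groups did not overlap. The difference was 1.33 ± 0.37 (95% interval 0.43 to 2.22, limma adjusted p = 0.174). Without labelled transgenic array 3 it was 0.88, a drop of more than the standard error. The labelled non-transgenic mean of 3.09 lay under the brightness filter, so the size of the difference is uncertain, and the probe set passed the filter only through the labelled transgenic arrays.

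Sfrp5, an antagonist best known from adipose tissue and the inflow region of the embryonic heart, read 4.03, 4.04 and 4.20 on the labelled transgenic arrays and 4.56, 4.12 and 4.84 on the labelled non-transgenic ones. The groups overlapped through labelled non-transgenic array 2, and the difference was -0.41 ± 0.18 (95% interval -0.86 to 0.03, limma adjusted p = 0.336). Without labelled non-transgenic array 3 it was -0.25. Its second probe set lay below the filter, at 2.55 and 2.61 on average in labelled transgenic and labelled non-transgenic hearts. Of 6 adipocyte markers with a probe set, 5 were below the filter too, Adipoq among them at 2.15 and 2.16 in labelled transgenic and labelled non-transgenic hearts, and Fabp4, also known from capillary endothelium, was above it at -0.25 (unadjusted p = 0.0241, adjusted p = 0.234 in limma). Wif1, which binds Wnt ligands directly, read 3.32, 3.48 and 3.39 on the labelled transgenic arrays and 3.37, 4.31 and 3.42 on the labelled non-transgenic ones. Only labelled non-transgenic array 2 stood apart, and without it the difference of -0.30 ± 0.26 (limma, adjusted p = 0.614) became 0.0063. Without labelled non-transgenic array 1 it was -0.46.

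Dkk3 belongs to the Dickkopf family by sequence, although its effect on Wnt signalling is less clear than that of Dkk1. Its brighter probe set (1448669_at) read 5.77, 4.80 and 5.61 on the labelled transgenic arrays and 4.49, 5.01 and 4.61 on the labelled non-transgenic ones. The dimmer (1417312_at) read 5.06, 4.22 and 5.38 on labelled transgenic arrays, against 3.65, 4.37 and 3.58 on labelled non-transgenic ones. In both, the groups overlapped because labelled transgenic array 2 was low and labelled non-transgenic array 2 was high. The differences were 0.69 ± 0.28 and 1.02 ± 0.35, with limma adjusted p-values of 0.299 and 0.24. Those 2 arrays were also the ones whose Xist level was unlike that of the rest of their group. Among arrays with high Xist the dimmer probe set was 0.85 higher in labelled transgenic hearts, and among those with low Xist it was 0.61 higher, with no overlap within either level. With the Xist level as a term, added after the values were seen, its difference was 0.78 (unadjusted p = 0.00146, adjusted p = 0.144 in limma). The brighter probe set differed less, by 0.68 among arrays with high Xist and by 0.25 among those with low Xist. With the term it was at 0.50 (unadjusted p = 0.0132, adjusted p = 0.238 in limma).

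Of the 19 probe sets, 10 were higher on every labelled transgenic array than on every labelled non-transgenic array of the same Xist level, Sfrp2 included, beside 17.6% of all probe sets kept, and 2 were lower in that way, beside 15.6%. The high level was seen on 2 labelled transgenic arrays and 1 labelled non-transgenic array, so each level sets single arrays against pairs. The brightest Frzb probe set differed by 1.39 among arrays with high Xist and by 1.37 among those with low Xist. With the Xist level as a term its difference was 1.41 (unadjusted p = 2.86e-05, adjusted p = 0.0858 in limma). In that fit 9 of the 19, again with Sfrp2 included, were higher at an unadjusted p under 0.05, beside 8.06% of all probe sets kept. None passed after adjustment, among the 19 or over all probe sets.

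**Figure D1:**
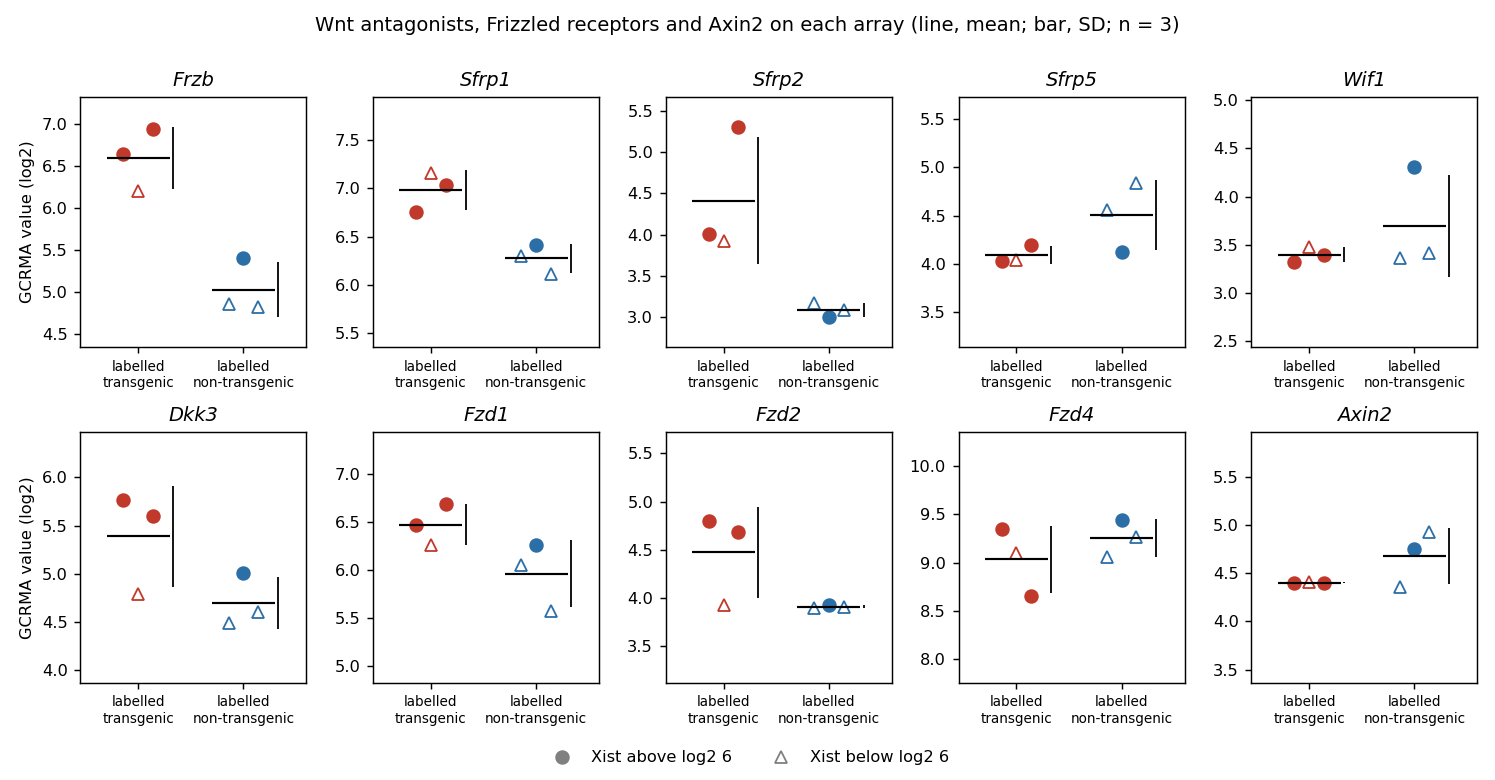
GCRMA values (log2, each panel with its own scale) of the brightest probe set of each of the 10 genes, with the 3 labelled transgenic arrays (red) left of the 3 labelled non-transgenic ones (blue), the mean as a line and the SD as a bar. Filled circles are arrays with Xist above log2 6 and open triangles those below. Frzb, Sfrp1 and Sfrp2 separate the groups, Fzd1 and Fzd2 do so narrowly, and Dkk3, Fzd4, Sfrp5, Wif1 and Axin2 overlap.

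Among the receptors, Fzd2, which can signal in both canonical and non-canonical ways, had 2 probe sets above the filter. The dimmer (1418533_s_at) read 4.60, 4.24 and 5.06 on the labelled transgenic arrays, against 3.58, 3.97 and 3.05 on the labelled non-transgenic ones, and its groups did not overlap. The difference was 1.10 ± 0.29, or 2.14-fold (95% interval 0.39 to 1.81, limma adjusted p = 0.164). Its name carries a suffix for probes shared between transcripts. The brighter (1418534_at) read 4.80, 3.93 and 4.69 on the labelled transgenic arrays and 3.90, 3.92 and 3.91 on the labelled non-transgenic ones, so labelled transgenic array 2 was level with the other group, and the difference was 0.56 ± 0.23 (limma, adjusted p = 0.298). The last lay below the filter, at 2.10 and 1.54 on average in labelled transgenic and labelled non-transgenic hearts.

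Fzd1, another Wnt receptor, read 6.46, 6.26 and 6.69 on the labelled transgenic arrays and 6.05, 6.26 and 5.58 on the labelled non-transgenic ones. The groups met at 6.26 without overlapping, and the difference was 0.51 ± 0.20 (95% interval 0.02 to 0.99, limma adjusted p = 0.287). Without labelled non-transgenic array 3 it was 0.31. Its second probe set was below the filter, at 2.99 and 2.98 on average in labelled transgenic and labelled non-transgenic hearts. Fzd4, the receptor for norrin as well as Wnt ligands and known from vascular endothelium, had 3 bright or fairly bright probe sets. The brightest read 9.35, 9.10 and 8.66 in labelled transgenic hearts and 9.06, 9.45 and 9.27 in labelled non-transgenic hearts, overlapping, with a difference of -0.22 ± 0.19 (95% interval -0.69 to 0.25, limma adjusted p = 0.621). This value rested on single arrays: it was -0.38 without labelled transgenic array 1, -0.03 without labelled transgenic array 3, -0.13 without labelled non-transgenic array 2 and -0.02 with the station blocked. The next, at 8.74, 8.58 and 8.38 in labelled transgenic hearts against 8.70, 9.05 and 8.90 in labelled non-transgenic ones, gave -0.32 ± 0.13 (limma, unadjusted p = 0.0492, adjusted p = 0.303), and was the 1 probe set lower at that unadjusted level. With the station blocked it was -0.13, and for both probe sets that fit compares with labelled non-transgenic array 1 alone. The dimmest was at 0.05 ± 0.33 (limma, adjusted p = 0.955), with labelled non-transgenic values from 5.79 to 7.11.

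Axin2, the feedback inhibitor whose transcript follows canonical signalling, read 4.40, 4.41 and 4.40 on the labelled transgenic arrays. The labelled non-transgenic arrays read 4.36, 4.75 and 4.93, so the groups overlapped through array 1. The difference was -0.27 ± 0.15 (95% interval -0.64 to 0.09, limma adjusted p = 0.419). It was -0.44 without labelled non-transgenic array 1 (limma, unadjusted p = 0.00302, adjusted p = 0.15) and -0.15 without labelled non-transgenic array 3. With the station as a block it was 0.047, above 0, and labelled non-transgenic array 1 is then the only array of its group on the shared station. The second Axin2 probe set was below the filter, at 2.48 and 2.47 on average in labelled transgenic and labelled non-transgenic hearts. The SD of the labelled transgenic values was 0.0049 for the brighter Axin2 probe set and 0.0053 for this one. The brighter one may thus lie near its own background on those arrays, which was not tested, and its level is a weak guide to signalling.

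**Figure D2:**
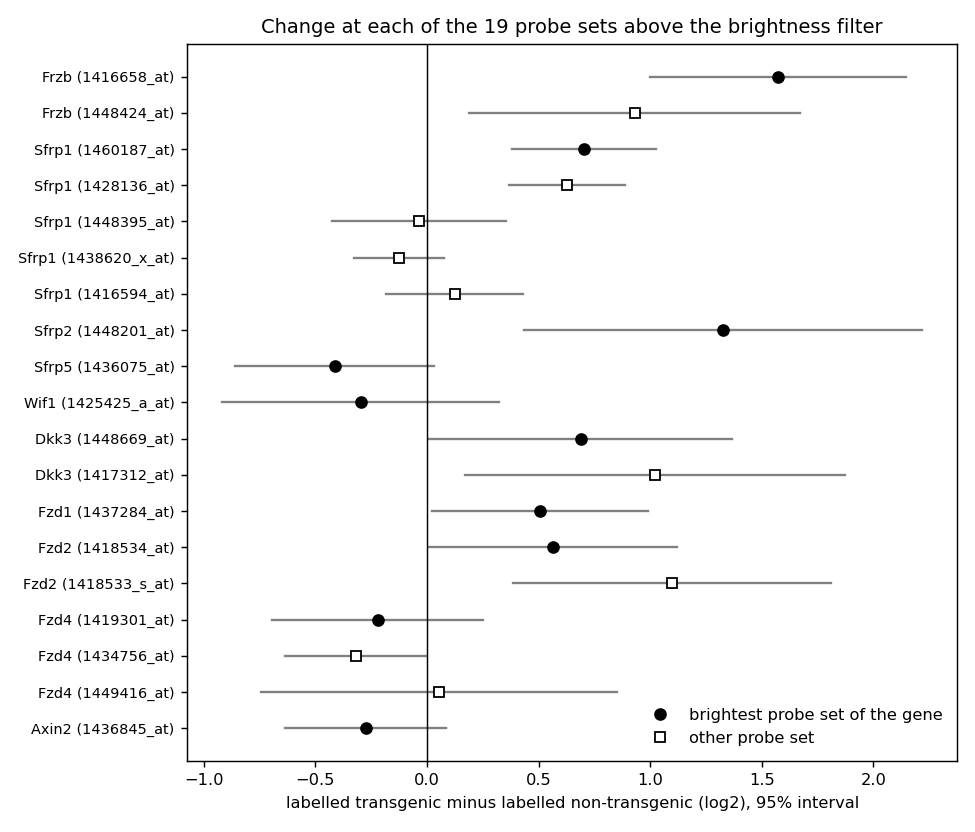
Differences, labelled transgenic minus labelled non-transgenic (log2, horizontal axis), of the 19 probe sets above the brightness filter, with limma's 95% interval as a bar. Filled circles are the brightest probe set of each gene and open squares the others. Both Frzb intervals lie above 0, the Sfrp2 interval belongs to a probe set kept through its labelled transgenic values, the Sfrp1 probe sets split into 2 well above 0 and 3 near it, and the Wif1, Sfrp5 and Axin2 intervals span 0.

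The rest of the Wnt pathway was read through a list of 105 other genes, of which 103 had a probe set and 61 lay above the filter. None passed in limma after adjustment, where 0.227% of the 11016 genes tested did, each by its brightest probe set. At an unadjusted p under 0.05, 4 were higher and 5 lower, beside 10.4% and 7.76% of all genes tested (18.2% together), and the median difference was 0.013, beside 0.0099 over all genes. Of 19 Wnt ligands, 12 were below the filter. By their brightest probe sets, none of the other 7 had an unadjusted p under 0.05 in limma, and their median was -0.07. Another Wnt5a probe set was at -1.24, against -0.34 for its brightest. Of 10 other antagonists only Sfrp4 and Apcdd1 were above the filter, while Dkk1, Dkk2 and Dkk4 were below it. Of 14 other receptors and co-receptors with a probe set, 10 were above it, with a median of 0.16.

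Kremen1, a receptor for Dickkopf proteins that removes Lrp6 from the surface, read 9.09, 9.47 and 9.49 in labelled transgenic hearts, against 8.71, 8.78 and 8.91 in labelled non-transgenic ones. The groups did not overlap, the difference was 0.55 ± 0.13 (limma, adjusted p = 0.141), and its other probe set was at 0.93. Dact1, which binds the signalling scaffold Dishevelled, read 7.22, 6.59 and 7.37 in labelled transgenic hearts and 6.33, 5.68 and 6.25 in labelled non-transgenic ones, a difference of 0.97 ± 0.26 (limma, adjusted p = 0.166). Btrc, a ubiquitin ligase subunit that recognises beta-catenin, was at 0.30 ± 0.11 (limma, adjusted p = 0.279), with another probe set at -0.24. Differences below 0 were found for the co-repressor Tle4 (-0.31 ± 0.07, limma adjusted p = 0.139) and the beta-catenin cofactor Bcl9 (-0.50 ± 0.18, limma adjusted p = 0.265). The casein kinase gene Csnk1e was at -0.26 ± 0.08, the beta-catenin destruction complex gene Amer1 at -0.31 ± 0.10 and the R-spondin receptor gene Lgr6 at -0.31 ± 0.11, with limma adjusted p-values of 0.203, 0.221 and 0.257. Another Tle4 probe set was at 0.086 and another Amer1 probe set at -0.02. The other probe sets of Bcl9 and Lgr6 were at -0.50 and -0.49, and those of Csnk1e from -0.82 to -0.15.

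Fibroblast and macrophage markers, like several of the antagonists, mostly had differences above 0. Of 13 fibroblast markers 8 were higher at an unadjusted p under 0.05, beside 10.4% of all genes tested, and none passed after adjustment in limma, with a median of 0.54. The summed linear signal of all 13 ran from 46513 to 51615 on the labelled transgenic arrays and from 32914 to 40993 on the labelled non-transgenic ones. Gsn and Dcn made up 73.3% to 80.7% of that sum. The other 11 summed to 8959 to 13799 on the labelled transgenic arrays and 6414 to 9223 on the labelled non-transgenic ones, so without those 2 genes the groups overlapped. Of 11 macrophage markers 9 were higher at that level, beside the same 10.4%, and none passed, with a median of 0.52 and sums from 7537 to 9051 on the labelled transgenic arrays and from 5666 to 6163 on the labelled non-transgenic ones. Without Lyz2 and Csf1r, which held 53.6% to 61.4% of it, the macrophage sums did not overlap. The 2 brightest markers of each list were well above the filter in both groups, Gsn and Dcn for fibroblasts and Lyz2 and Csf1r for macrophages. The part of these cell types in the differences of Frzb, Sfrp1, Sfrp2, Dkk3 and Fzd2 was not tested.

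Endothelial markers, which bear on Fzd4, had a median of 0.035, and none of 10 had an unadjusted p under 0.05. Their sums overlapped, from 6015 to 6922 on the labelled transgenic arrays and from 5772 to 7167 on the labelled non-transgenic ones. Of 11 smooth muscle and pericyte markers none passed, 3 were lower at an unadjusted p under 0.05, beside 7.76% of all genes tested, and the median was -0.14. Their sums ran from 19756 to 21358 in labelled transgenic hearts and from 21507 to 24553 in labelled non-transgenic ones, and overlapped without Rgs5 and Abcc9. Of 10 cardiomyocyte markers none passed or reached that level in limma, with a median of -0.05 and sums from 426682 to 437483 in labelled transgenic hearts against 439013 to 448688 in labelled non-transgenic ones. The cardiomyocyte sums did not overlap with or without Myh6 and Myl3, the brightest markers of that list. Of 7 cartilage markers, which bear on Frzb, 6 were below the filter, Col2a1 and Acan among them. The cartilage matrix gene Comp, also expressed by activated fibroblasts, was at 6.55 and 5.03 on average in labelled transgenic and labelled non-transgenic hearts, a difference of 1.53 (limma, adjusted p = 0.147). Of the other lists, lung epithelium, epicardial, atrial and skeletal muscle markers had 1, 1, 2 and 3 genes above the filter, and none reached an unadjusted p under 0.05.

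**Figure D3:**
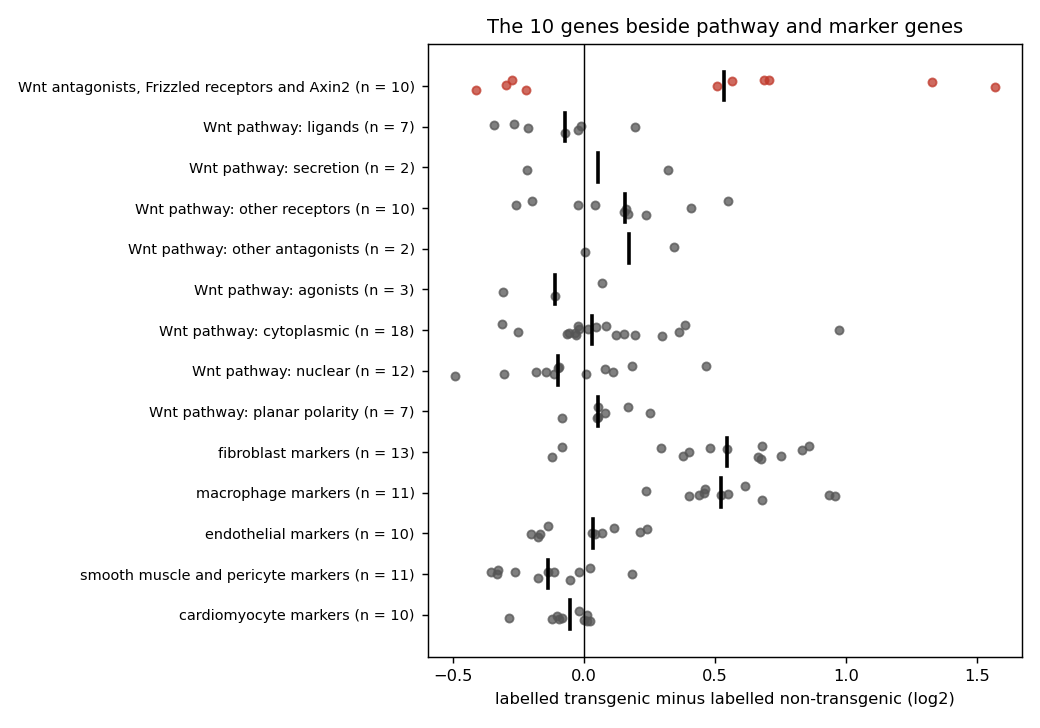
Differences, labelled transgenic minus labelled non-transgenic (log2, horizontal axis), of the 10 genes (red) and, in grey, of the Wnt pathway genes and the fibroblast, macrophage, endothelial, smooth muscle and cardiomyocyte markers above the brightness filter, each point 1 gene by its brightest probe set and each black tick the median of its row. Of the 10 genes, 6 lie above 0 and 4 below 0, the fibroblast and macrophage markers have medians of 0.54 and 0.52, and the other rows drawn have medians from -0.14 to 0.17.

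The genes whose profile over the 6 arrays was most like that of Frzb were sought among 11015 others, after each profile had been centred and scaled to the same standard deviation. The nearest were Tmed3, P2rx5, Nsun2, Il6st and Mpdz, with mean absolute differences from the Frzb profile between 0.047 and 0.087 standard deviations. P2rx5, an ATP-gated ion channel, read 7.91, 7.71 and 7.96 on the labelled transgenic arrays, against 7.05, 7.27 and 7.05 on the labelled non-transgenic ones. Il6st, the shared receptor subunit gp130, read 11.27, 11.06 and 11.34 on the labelled transgenic arrays and 10.71, 10.86 and 10.72 on the labelled non-transgenic ones. Frzb, P2rx5 and Il6st were each lowest on labelled transgenic array 2 within that group and highest on labelled non-transgenic array 2 within the other. P2rx5 and Il6st were picked for their likeness to Frzb, so this shared order follows from that choice.

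**Figure D4:**
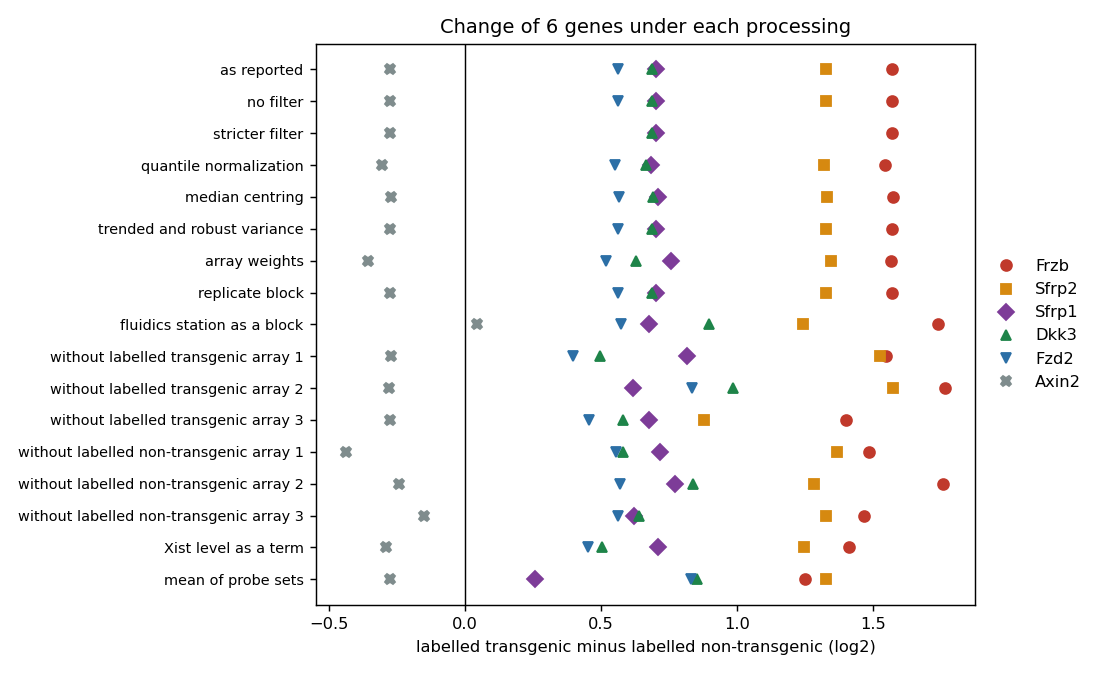
Difference, labelled transgenic minus labelled non-transgenic (log2, horizontal axis), of the brightest probe set of 6 genes under each processing (vertical axis). Each symbol is 1 gene, and the lowest row averages a gene's probe sets. Frzb stayed between 1.25 and 1.77 in every row, Sfrp1 was at 0.26 when its probe sets were averaged, and Axin2 was above 0 in a single row, the station block.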

How the data were processed

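GCRMA, a background correction and normalization for Affymetrix arrays, is the one tool named in the submitters' processing notes, without a version in what was used here. The authors deposited 1 log2 value per probe set and array, and these were used as deposited. Other information came from the instrument's text records (station, scan order, typed word). Total RNA was labelled from 6 ug per sample, per the labels' protocols.

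Of 45101 probe sets, 64 controls were removed. Probe sets were named by the platform's 2016 annotation, where 34945 probe sets had 1 gene, 932 several and 9160 none. The median of the probe set means, 3.29, served as filter and left 22518 probe sets. Groups were compared with limma 3.58.1 in R 4.3.3 (lmFit, eBayes, 2-sided) and Benjamini-Hochberg adjustment, at a threshold of 0.05. The fit was tested on simulated data with independent noise and 200 changed probe sets a run. It recovered 18.5% of log2 changes of 0.5 and 80.3% of those of 1, so most changes of 0.5 were missed there. The changed probe sets were drawn at random from all those kept, so these shares need not hold for the probe sets of the 10 genes. A gene in a list was read by its brightest probe set. Named were all 10 genes, the 8 listed pathway genes with the smallest p, the 5 genes most like Frzb, and up to 2 markers a list. Wnt5a, Adipoq, Col2a1, Acan and Comp, and any other marker, were picked with their values known. The genes and lists were chosen with earlier results of these data known. Any pair of arrays had identical values at 0.0178% of probe sets or fewer. Alternatives covered the filter, normalization, variance model, array weights, replicate number and station as blocks, probe set averaging and each array left out. The Xist level as a term, a refit on 1 probe set per gene, counts without Sfrp2 and marker sums without the 2 brightest markers were added after seeing the data. The number of arrays limits the precision.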

Additional observations from a re-analysis of the deposited data

How the results depend on the processing

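None of the 19 probe sets of the 10 genes passed under any alternative run, and of 287 differences recomputed, 278 kept their sign. The 9 that turned came from 5 probe sets. With the fluidics station blocked, Axin2 was at 0.047, Wif1 at 0.031 and a dim Sfrp1 probe set at -0.10. That fit sets the labelled transgenic arrays against labelled non-transgenic array 1 alone, the only array of its group on their station. Another dim Sfrp1 probe set was at 0.035 and the dimmest Fzd4 one at -0.052 once the Xist level was a term. With 1 array left out, that Sfrp1 probe set ran from -0.21 to 0.11 (0.11 without labelled transgenic array 3), Wif1 from -0.46 to 0.0063 (0.0063 without labelled non-transgenic array 2), and that Fzd4 probe set from -0.28 (without labelled non-transgenic array 3) to 0.38, with -0.041 without labelled transgenic array 2. Why the differences turned in the other settings was not tested. The count of higher ones at an unadjusted p under 0.05, 10 as reported, ran from 3 (station block) to 10, and that of lower ones from 0 to 3. Over all probe sets kept, 49 passed; 15 did without the filter, 99 with a stricter one (the 60th percentile), 102 with trended and robust variance, 2 with the station as a block, 0 with the Xist level as a term, and 0 to 75 with 1 array left out (75 without labelled transgenic array 1, 5 without labelled non-transgenic array 1, 0 without any other). The stricter filter kept 11 of the 23 probe sets. With the replicate number as a block 0 passed; same-numbered arrays deviated from their group means with correlations of -0.083, -0.174 and -0.007, so the numbers were not taken as pairs. The 1 pathway gene that passed in any setting was Tnks, as the mean of its probe sets (0.68, adjusted p = 0.0488, against 0.12 for its brightest). The 1 marker was Dcn with trended and robust variance (0.38, adjusted p = 0.0356). Dim probe sets, such as those of Sfrp2, Wif1, Fzd2 and Axin2, are limited by their closeness to background.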
